A study of Mus musculus with 24 samples.

Results

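Arhgap31 and Flnc were examined as a pair of actin regulators. Their promoters were less covered by called H3K27me3 peaks in cultured neurons treated with an EZH2 inhibitor. At Flnc this depended on how the peaks were ranked. H3K27me3, trimethylation of lysine 27 of histone H3, is laid down by the Polycomb enzymes EZH2 and EZH1 and marks the promoters of silenced genes. The 2 genes, of 21938 protein-coding genes with a promoter window, were chosen from promoters with lower coverage after GSK-126 than after DMSO in these same libraries, so the values of that contrast are given as a description, with no test. The promoter window reached 3 kb to each side of the annotated 5′ end, and coverage is the percentage of this window lying under the called peaks of a library.

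The data were CUT&RUN peak lists, in which an antibody-tethered nuclease releases the marked chromatin for sequencing, from cerebellar granule neurons (CGNs) of CD1-IGS mouse pups of postnatal age P6 to P8. Progenitors were enriched on Percoll and cultured, and each replicate pooled the cerebella of litters. There were 24 libraries in 8 groups of 3. The time course had untreated cultures harvested on day in vitro (DIV) 1, 3, 5 and 7. In the GSK-126 experiment cultures received either DMSO or the EZH2 inhibitor GSK-126 at 5 µM. In the GSK-J4 experiment they received either DMSO, as a separate group, or GSK-J4 at 1 µM, an inhibitor of the H3K27 demethylases KDM6A and KDM6B. The authors reported no change in H3K27me3 at this dose and judged the usable range of GSK-J4 too small for neurons. Drug or vehicle was added on DIV1 and cells were harvested on DIV5. Cultures kept beyond DIV2 received 1 µM AraC, which kills dividing cells, on that day. The DIV1 cultures were harvested before it, and day and AraC cannot be told apart in comparisons with DIV1. In a mixed culture, fewer cells carrying the mark and less mark per cell cannot be told apart either.

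Arhgap31 encodes a GTPase-activating protein that switches off Rac1 and Cdc42, the small GTPases that drive actin assembly at the leading edge of cells, and truncating mutations of it cause Adams-Oliver syndrome. Flnc encodes filamin C, a large protein that crosslinks actin filaments and is best known from the Z-discs of striated muscle. Both therefore act on the actin cytoskeleton, the first through signalling and the second as a structural crosslinker.

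In the mm10 (GRCm38) build, Arhgap31 (ENSMUSG00000022799.4) lies on the minus strand of chromosome 16 with its 5′ end at 38713274, and its window was chr16:38710274-38716273. Flnc (ENSMUSG00000068699.12) lies on the plus strand of chromosome 6 with its 5′ end at 29433256, and its window was chr6:29430256-29436255. The 1 kb centred on the Arhgap31 5′ end held 7.0 CpG dinucleotides per 100 bases, and the same stretch at Flnc held 7.6. The median over all 21938 promoters was 4.1, and 75.5% of promoters had a lower density than Arhgap31 and 80.1% a lower density than Flnc. Over the 1893 promoters that every DMSO library of the GSK-126 experiment marked the median was 5.4, so both genes had CpG-rich starts also among marked promoters.

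A stretch from under the peaks of each gene is shown to place the GSK-126 values in sequence, with the CpG dinucleotides in capitals. The Arhgap31 stretch, chr16:38713275-38713502 on the minus strand, is the upstream part of the segment that lay under a peak in all 3 DMSO libraries, and it ends at the base before the gene. The Flnc stretch, chr6:29433908-29434110 on the plus strand, lies in intron 1 and is the segment shared by the peaks of GSK-126 replicates 2 and 3, outside those of replicate 1.
Arhgap31: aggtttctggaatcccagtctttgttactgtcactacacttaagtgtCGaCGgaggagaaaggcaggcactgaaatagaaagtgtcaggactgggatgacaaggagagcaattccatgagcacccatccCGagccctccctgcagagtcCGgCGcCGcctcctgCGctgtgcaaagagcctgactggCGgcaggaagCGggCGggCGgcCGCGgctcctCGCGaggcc
Flnc: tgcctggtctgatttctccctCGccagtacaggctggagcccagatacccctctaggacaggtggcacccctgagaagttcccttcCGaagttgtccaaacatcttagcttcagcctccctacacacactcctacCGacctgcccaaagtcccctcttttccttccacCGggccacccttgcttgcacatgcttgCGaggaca
The Arhgap31 stretch of 228 bases had 6.58 CpG per 100 bases, and the shorter Flnc stretch had 2.46. The Flnc segment marked in both of these treated libraries thus lay outside the CpG-dense start of the gene.

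Libraries differed in how much was called. In the GSK-126 experiment the DMSO lists covered 3.29, 3.55 and 4.23 Mb of the genome and the GSK-126 lists 1.07, 1.63 and 2.00 Mb. Within each experiment only the strongest peaks of each list, by the caller's −log10 p, were therefore kept until all lists had the length of the shortest one, and values from these lists of equal summed length are given first, beside those from all deposited peaks. GSK-126 replicate 3 stood apart: 47.2% of the promoters with a peak in it had a peak in no other library, against 0.698% to 5.66% in the other 23 libraries. Markers of granule neurons had a promoter peak in a mean of 3.75% of libraries over 20 genes, against 10.8% over all promoters and 16.8% over 26 markers of other cell types.

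Flnc had a promoter peak in 24 of 24 libraries and Arhgap31 in 20 of 24. Only 285 promoters, 1.30% of all, had a peak in every library. The 4 libraries without an Arhgap31 peak were DIV1 replicates 1 and 3 and GSK-126 replicates 2 and 3. Promoter peaks of Arhgap31 were 94 to 1208 bp long, single in each library, and lay between 434 bp upstream and 789 bp downstream of the 5′ end. Those of Flnc were 64 to 1352 bp long, numbered 33 in all, and lay between 406 bp upstream and 1338 bp downstream. At most 19 libraries shared any base at Arhgap31, in a segment of 76 bp from 48 bp upstream to 27 bp downstream of the 5′ end, which crosses into the 5′ untranslated region. At Flnc as many as 21 libraries shared a base, in 169 bp of intron 1 from 686 to 854 bp downstream of the 5′ end. The shared mark therefore sat on the start of Arhgap31 and just inside Flnc.

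**Figure D1:**
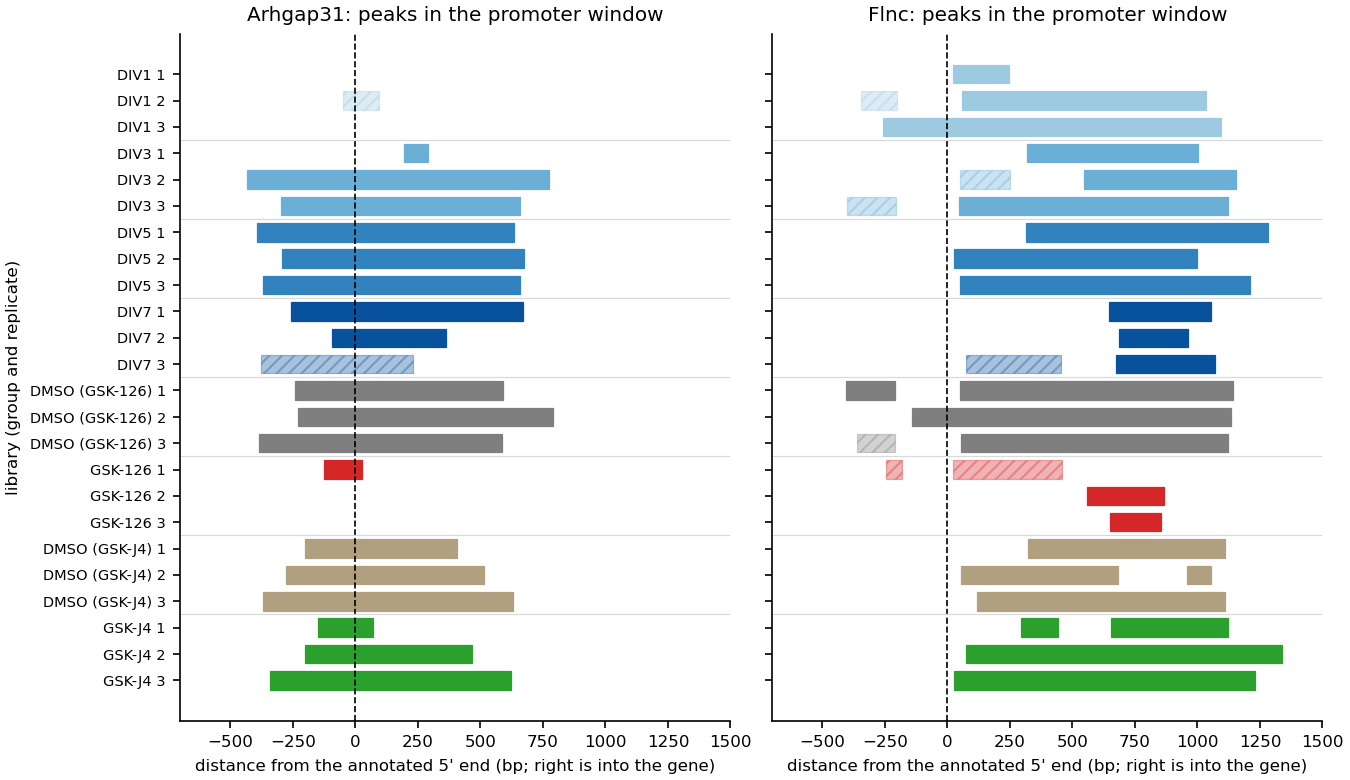
Called H3K27me3 peaks in the promoter windows of Arhgap31 (left) and Flnc (right) in each of the 24 libraries, by distance from the annotated 5′ end in bp, coloured by group. Solid bars are peaks kept in the lists of equal summed length and pale hatched bars are peaks present only in the full lists. At Arhgap31 the DIV1 and GSK-126 rows hold 1 short peak each. At Flnc the longest bar of each DIV7 and GSK-126 library is shorter than the longest bar of any DIV5 or DMSO library.

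Arhgap31 had almost no called mark in the GSK-126 libraries. Coverage with equal lists was 13.9%, 17.0% and 16.2% in DMSO replicates 1 to 3 and 2.53%, 0% and 0% in GSK-126 replicates 1 to 3. The group means were 15.7% ± 1.62 (SD, n = 3) with DMSO and 0.844% ± 1.46 (SD, n = 3) with GSK-126, a difference of −14.8 percentage points, and the groups did not overlap. All deposited peaks gave the same 6 values. In those full lists limma called 636 of 2385 promoters lower. Of promoters with a peak in all 3 DMSO libraries, 20.1% had one in 1 of 3 GSK-126 libraries, as Arhgap31 did. With equal lists 939 promoters were tested in this experiment. Of these, 41 (4.37%) were called lower with GSK-126 by limma at an adjusted p under 0.05. At 131 (14.0%) the GSK-126 values were all below the DMSO values. All these shares are given as background only. Leaving out any of the 6 libraries in turn gave 0 to 16 such calls (0 if DMSO replicate 2 or GSK-126 replicate 1 or 3 was dropped, 4 for GSK-126 replicate 2 and 16 for DMSO replicate 1 or 3), while the Arhgap31 difference stayed between −15.7 and −14.2 points. Without GSK-126 replicate 3 it was −14.4 points.

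The single GSK-126 peak at Arhgap31, in replicate 1, was 152 bp long and reached from 124 bp upstream to 27 bp downstream of the 5′ end. It fell inside the segment of 814 bp shared by the 3 DMSO libraries, which ran from 228 bp upstream to 585 bp downstream. The treated peak thus covered the start of the gene, most of it within the stretch printed above, and nearly none of the untranslated exon. Column 7 of the peak lists, the fold enrichment over local background that the caller gives, was 4.26 in this peak, against 3.97, 4.18 and 4.22 in the DMSO peaks. The treated peak was narrower but not lower in enrichment. Mean column 7 over all peaks of a library was 3.98 in GSK-126 replicate 1 and 3.75 to 3.81 in the DMSO libraries.

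Flnc had short peaks in each GSK-126 library. With equal lists its coverage was 21.5%, 21.3% and 17.8% in DMSO replicates 1 to 3 and 0%, 5.08% and 3.38% in GSK-126 replicates 1 to 3. The means were 20.2% ± 2.06 (SD, n = 3) and 2.82% ± 2.59 (SD, n = 3), a difference of −17.4 percentage points. With all deposited peaks the DMSO values were 21.5%, 21.3% and 20.3% and the GSK-126 values 8.35%, 5.08% and 3.38%, a difference of −15.4 points. The groups did not overlap in either case, as at 14.0% of tested promoters with equal lists. With all deposited peaks that share was not computed, and limma called 636 of 2385 promoters lower. Without GSK-126 replicate 3 the difference was −17.6 points.

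The Flnc peaks of the treated libraries lay in different places. In GSK-126 replicate 1 a peak of 437 bp covered exon 1 from 22 bp downstream of the 5′ end, with a second one of 64 bp upstream. In replicate 2 a peak of 305 bp ran from 560 to 864 bp downstream, and in replicate 3 a peak ran from 652 to 854 bp downstream, in intron 1. No base was therefore shared by all 3 treated libraries, whereas the DMSO libraries shared 1068 bp, of which 504 bp were exon 1 (355 coding) and the rest intron 1. Length-weighted column 7 at Flnc was 3.73, 3.68 and 3.95 with DMSO and 3.90, 4.23 and 4.80 with GSK-126.

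The Flnc difference depended on how peaks were ranked. When the lists were limited by column 7 in place of −log10 p, the DMSO values became 0%, 0% and 17.8% and the GSK-126 values 8.35%, 5.08% and 3.38%, and the difference was −0.328 points. When only peaks with a −log10 q of 2 or more were admitted before the lists were cut to equal length, Flnc was covered in GSK-126 replicate 3 alone, and the difference was 1.13 points. The Arhgap31 difference was −11.1 points under that stricter threshold, and under the ranking by column 7 its 6 values did not move. The widest Flnc peak of each DMSO library had a column 7 of 3.72, 3.68 and 3.996, of which the ranking by column 7 kept the last.

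In the order of promoters lower with GSK-126 by p, which chose the genes, Arhgap31 stood at rank 7 and Flnc at rank 9. Just before Arhgap31 was Tmem196, with means of 17.4% with DMSO and 1.01% with GSK-126, and between the pair at rank 8 was Pdzrn4, with 23.0% and 2.25%. Just after Flnc was Jam2, a junctional adhesion molecule, with 19.3% and 2.07%. The last promoter past the threshold was Elmsan1, with 7.01% and 0%, and the first one outside it was Gmpr, with 11.8% and 2.37%.

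The drug groups could also be set beside untreated cultures of the same day. With all 24 libraries limited to 1 common length, the 9 DIV5 libraries without an inhibitor (untreated and both DMSO groups) had Arhgap31 coverage from 10.2% to 17.2%, with a median of 16.2%. In the same lists GSK-126 gave 0% to 2.53%. For Flnc the 9 libraries ran from 10.5% to 21.5%, with a median of 16.6%, and GSK-126 from 0% to 5.08%. The GSK-126 libraries thus lay below every DIV5 library without an inhibitor at both genes, a description that reuses the values that chose them. The share of all promoters with this pattern was not computed.

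**Figure D2:**
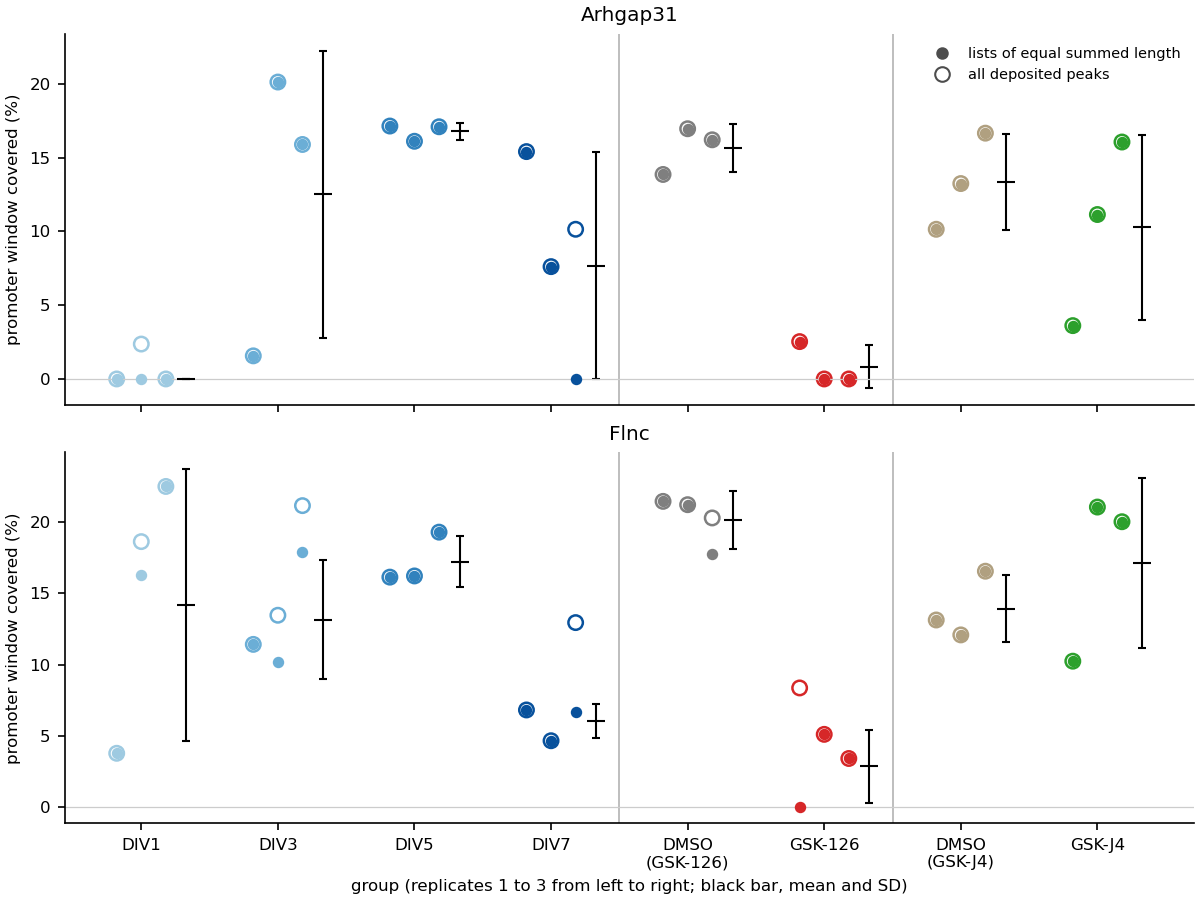
Promoter coverage of Arhgap31 (top) and Flnc (bottom) in percent of the window, by group. Filled points are lists of equal summed length within an experiment, open circles all deposited peaks, and black bars the mean and SD of the 3 filled points. At Arhgap31 the GSK-126 points lie between 0% and 2.53% and the DMSO points between 13.9% and 17.0%.

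The time course was not used to choose the genes and could be tested. It was measured to follow H3K27me3 as CGNs mature in culture. At Arhgap31 the equal lists gave 0% in each of the 3 DIV1 libraries, 1.57%, 20.1% and 15.9% at DIV3, 17.2%, 16.1% and 17.1% at DIV5, and 15.4%, 7.62% and 0% at DIV7. In the full lists a 142 bp peak of 2.37% appeared in DIV1 replicate 2, and DIV7 replicate 3 held 10.2%. Every later library except DIV3 replicate 1 was therefore above every DIV1 library when all peaks counted, and DIV5 was the most uniform day.

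The DIV5 minus DIV1 difference at Arhgap31, a contrast added after the values were seen, was 16.8 points (SE 4.66, 95% interval 6.40 to 27.2), with an adjusted p of 0.148 in limma over 1794 promoters. With peaks ranked by column 7, DIV5 replicates 1 and 3 had 0% and the difference was 5.37 points (limma adjusted p = 0.889). The groups did not overlap, as at 4.79% of tested promoters in this direction, whereas 0.892% were called in either direction. In this comparison 35 promoters (1.95%) shared the pattern of no coverage in all 3 DIV1 libraries and coverage in all 3 DIV5 libraries. DIV7 minus DIV1 was 7.68 points (SE 4.66, interval −2.71 to 18.1, limma adjusted p = 0.546), where 1.00% of promoters were called, and it was 3.81 points without DIV7 replicate 1 and 11.5 without DIV7 replicate 3. DIV3 minus DIV1 was 12.5 points (limma adjusted p = 0.594); the groups did not overlap with equal lists, as at 2.68% of promoters, and 0.334% were called. None of these contrasts passed the threshold for Arhgap31.

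Flnc already carried the mark on DIV1 and had its lowest mean on DIV7. Coverage with equal lists was 3.75%, 16.3% and 22.5% at DIV1, 11.4%, 10.2% and 17.9% at DIV3, 16.2%, 16.2% and 19.3% at DIV5 and 6.80%, 4.63% and 6.63% at DIV7. With all deposited peaks DIV7 replicate 3 reached 12.95%, still below the lowest DIV5 library. Means were 17.2% ± 1.80 (SD, n = 3) at DIV5 and 6.02% ± 1.21 (SD, n = 3) at DIV7. The DIV1 libraries spread most, because replicate 1 held a single peak of 225 bp.

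DIV7 minus DIV5 at Flnc was −11.2 points (SE 4.03, interval −20.2 to −2.23, limma adjusted p = 0.578), and at Arhgap31 −9.11 points (SE 4.66, limma adjusted p = 0.875). The Arhgap31 difference was −5.27 points without DIV7 replicate 3 and −5.73 with all deposited peaks. DIV7 values lay below DIV5 values without overlap at both genes, as at 4.40% of tested promoters, and 0.334% of promoters were called in either direction. For Flnc, DIV7 minus DIV1 was −8.17 points (SE 4.03, interval −17.2 to 0.817, limma adjusted p = 0.437). This result moved with single libraries: without DIV1 replicate 3 it was −3.99 points, without DIV1 replicate 1 it was −13.4 points with a limma adjusted p of 0.0471, and without replicate 1 of every day, an alternative added after the data were seen, −13.8 points with 0.193. With peaks ranked by column 7 it was −2.74 points (limma adjusted p = 0.902). DIV3 minus DIV1 was −1.02 points and DIV5 minus DIV1 was 3.04 points at Flnc (limma adjusted p = 1 and 0.836). For DIV5 minus DIV3 and DIV7 minus DIV3 the adjusted p of both genes lay between 0.773 and 0.961.

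As a linear trend over DIV, the slope was 1.36 points per day (SE 0.972) for Arhgap31 and −1.02 points per day (SE 0.730) for Flnc, each with a limma adjusted p of 0.553, where 0.0557% of promoters were called. Neither slope passed the threshold, and both genes had their highest mean at DIV5. The Arhgap31 slope was 2.23 without DIV7 replicate 3, and the Flnc slope −1.802 without DIV1 replicate 1 and −0.577 without DIV1 replicate 3. Summed over the window and the whole gene with all peaks, Arhgap31 had 680 bp ± 235 (SD, n = 3) under peaks at DIV7 and 47.3 bp ± 82.0 at DIV1. The exact two-sided permutation test gave p = 0.1, the smallest that 3 against 3 libraries allow, and an adjusted p of 0.4 over the 4 tests made. For Flnc the sums were 488 bp ± 259 at DIV7 and 899 bp ± 595 at DIV1 (SD, n = 3), with an exact p of 0.4 and an adjusted p of 0.533. The full lists behind these sums covered 1.25, 1.19 and 2.25 Mb at DIV7 and 1.33, 5.19 and 4.08 Mb at DIV1.

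The segments shared by the 3 libraries of a day differed in place as well as in length. The 3 DIV1 libraries shared 189 bp of Flnc, from 58 to 246 bp downstream of the 5′ end and all within exon 1. DIV1 replicate 1, whose single peak ended at 246 bp, set this limit. The peaks of DIV1 replicates 2 and 3 ran on through intron 1 to 1034 and 1092 bp. Of the 12 time course libraries, 11 shared the segment from 686 to 963 bp. At DIV7 the 3 libraries shared 278 bp from 686 to 963 bp, all within intron 1, and the exon carried a peak only in the full list of replicate 3. At DIV5 the shared segment of 684 bp held both, with 243 bp of coding exon. For Arhgap31 the segment shared at DIV5 was 930 bp long, from 294 bp upstream to 635 bp downstream, and at DIV7 323 bp long, from 93 bp upstream to 229 bp downstream. These positions are a description, with no test.

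With GSK-J4 neither gene passed the test. Arhgap31 coverage was 10.2%, 13.3% and 16.7% with DMSO and 3.62%, 11.2% and 16.1% with GSK-J4, a difference of −3.08 points (SE 3.51, interval −11.1 to 4.96, limma adjusted p = 0.975). Flnc coverage was 13.1%, 12.1% and 16.6% with DMSO and 10.2%, 21.1% and 20.1% with GSK-J4, a difference of 3.19 points (SE 3.31, interval −4.38 to 10.8, limma adjusted p = 0.975). The groups overlapped at both genes. Over 1524 promoters limma called 0 (0.00%), and without adjustment 33 were higher and 40 lower at p under 0.05. GSK-J4 replicate 1 was the lowest of its group at both genes, and without it the differences were 0.253 points for Arhgap31 and 6.64 points for Flnc. Leaving out 1 library moved the Flnc difference between 1.21 points (without GSK-J4 replicate 2) and that value. With all 24 libraries limited to 1 common length, GSK-J4 replicate 3 had 0% at Arhgap31 and the difference was −8.43 points (limma adjusted p = 0.955). Exact permutation tests of the summed length gave p = 0.6 for Arhgap31 and p = 0.4 for Flnc.

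Enrichment inside the peaks varied far less than their width. Only peaks past the caller's threshold enter these values, which limits their range from below. Mean column 7 over all peaks of a library ran from 3.62 to 4.41. Column 7 ran from 3.60 to 4.82 over the 20 Arhgap31 promoter peaks and from 3.35 to 4.80 over the 33 Flnc peaks, with medians of 4.15 and 3.89. The highest values of both genes belonged to short peaks, the 94 bp Arhgap31 peak of DIV3 replicate 1 and the single Flnc peak of GSK-126 replicate 3. Only 6 of the Arhgap31 peaks and 10 of the Flnc peaks had a −log10 q of at least 2. A missing peak is a region below its threshold rather than one shown to lack the mark.

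Both genes carried the mark mainly at their starts. Outside the promoter window, Flnc, a gene of 28628 bp in full, held no peak in any of the 24 libraries. Arhgap31, of 114935 bp in full, held outside its window 1 short peak in each of 3 libraries, DIV5 replicate 3 (290 bp), DIV7 replicate 3 (50 bp) and DMSO replicate 1 of the GSK-126 experiment (143 bp), all about 40 kb into the gene. None of these 3 peaks was strong enough for the equal lists, so neither gene body could be tested. Over whole annotated genes, limma gave adjusted p values of 0.566 (Arhgap31) and 0.532 (Flnc) for DIV7 minus DIV1 and of 1 for GSK-J4.

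A region between 8 and 10 kb upstream of Arhgap31, chosen after its values were seen and lying between Arhgap31 and B4galt4, held peaks in 19 of 24 libraries. Unlike the promoter it was marked in all 3 DIV1 libraries, over 188, 783 and 354 bp. In the GSK-126 experiment it was also marked in every DMSO library, over 289, 239 and 327 bp, but with GSK-126 only in replicate 1, over 154 bp. GSK-126 replicates 2 and 3 thus lacked a peak at this region as well as at the promoter. These values are from all deposited peaks, and the lists of these replicates covered only 1.07 and 1.63 Mb. DIV3 replicate 1, replicate 3 of the DMSO group of the GSK-J4 experiment and GSK-J4 replicate 1 also had no peak in this region.

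Most neighbouring promoters had a peak in few or no libraries. Over all promoters 38.0% had a peak in some library. Of 7 other protein-coding genes with a 5′ end within 200 kb of Arhgap31, Igsf11, 4930435E12Rik, B4galt4 and Timmdc1 had no peak in any library, Upk1b had one in 1, Poglut1 in 5 and Tmem39a in 9, and none had coverage above 5.10%. Around Flnc there were 11 such genes. Hilpda, Fam71f2, Opn1sw, Atp6v1f and Tnpo3 had none, Fam71f1 and Calu had one in 1 library each and Atp6v1fnb in 2. Ccdc136 had a peak in 12 libraries, including 3 of 3 with DMSO in the GSK-126 experiment and 0 of 3 with GSK-126. These counts use the full lists, which were longer with DMSO. Such losses were not specific to Ccdc136: where each DMSO library marked a promoter (1893 cases), only 38.7% stayed marked throughout the GSK-126 group. How many lost every peak, as Ccdc136 did, was not computed.

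Kcp, which encodes a secreted BMP modulator, and Irf5, an interferon regulatory factor, were the marked neighbours of Flnc, each in 23 of 24 libraries. In the full lists Kcp had 26.8% ± 5.40 with DMSO and 11.2% ± 8.22 with GSK-126, and Irf5 had 26.97% ± 4.15 and 12.2% ± 10.6 (SD, n = 3 each). Flnc in the same lists had 21.0% ± 0.617 and 5.61% ± 2.52. At DIV7 Kcp and Irf5 had 8.61% ± 12.1 and 9.50% ± 1.43, and Flnc 8.13% ± 4.31. At DIV5 Irf5, whose 5′ end lies 93.4 kb from that of Flnc, had 17.3% ± 1.503, and none of these neighbour values was tested.

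**Figure D3:**
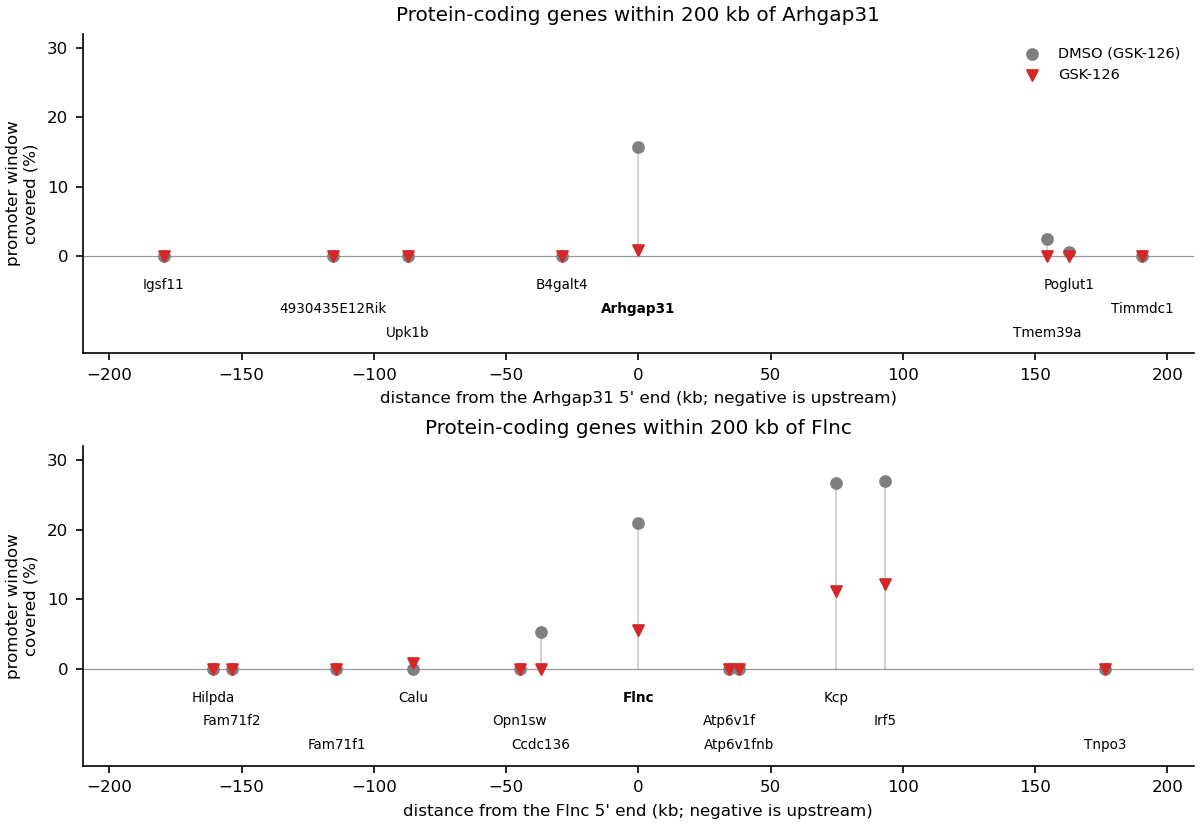
Mean promoter coverage with all deposited peaks (vertical axis, percent of the window, mean of 3 libraries) of protein-coding genes within 200 kb of Arhgap31 (top) and Flnc (bottom), by distance of their 5′ ends in kb. Grey circles are the DMSO group of the GSK-126 experiment and red triangles the GSK-126 group. Arhgap31 is the only promoter above 5.10% in its surroundings, while Flnc has the marked neighbours Kcp and Irf5.

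The coverage patterns of the pair differed from each other. With 1 common length, the Pearson r between Arhgap31 and Flnc was 0.41 over all 24 libraries and 0.13 over the 18 libraries outside the GSK-126 experiment. Among 1618 promoters covered in at least 6 libraries, the 5 most like Arhgap31 were Tmem196, Rarres1, Slc1a5, Gipc2 and Pld1, with r from 0.63 to 0.70 over 24 libraries and from 0.50 to 0.62 over the 18. Pld1, phospholipase D1, also had 0% in every DIV1 library and a mean of 23.8% at DIV5. Slc1a5, a glutamine transporter, had means of 1.61% at DIV1, 21.2% at DIV5, 19.2% with DMSO and 1.01% with GSK-126.

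The 5 most like Flnc were Lmo7, Tent5a, Car2, Pparg and Frem3, with r from 0.67 to 0.80 over 24 libraries and from 0.61 to 0.80 over the 18. Lmo7, an actin-associated LIM domain protein, had means of 19.9% at DIV5, 10.4% at DIV7, 20.2% with DMSO and 3.28% with GSK-126. Pparg, the adipocyte nuclear receptor, had 22.0% at DIV5, 9.56% at DIV7, 22.9% with DMSO and 10.8% with GSK-126. These correlations are a description over libraries that share peak depth within a group, and the GSK-126 libraries that chose both genes contribute to the values over 24.

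**Figure D4:**
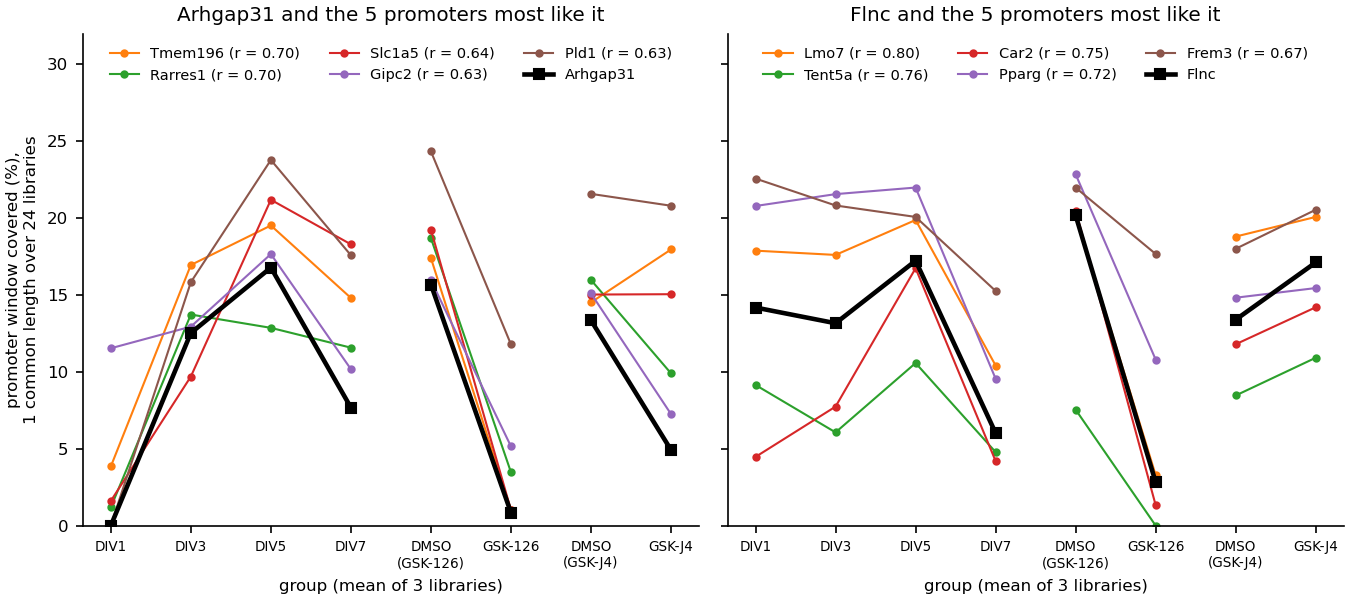
Group means (3 libraries each) of promoter coverage in percent, with all 24 libraries limited to 1 common summed length, for Arhgap31 (left, black) and Flnc (right, black) and the 5 promoters with the highest Pearson r to each over 24 libraries. Lines join groups of one experiment. Arhgap31 runs from 0% at DIV1 to 16.8% at DIV5, while Flnc starts at 14.2% and is at 6.02% on DIV7.

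Related genes were read from 9 lists, chosen with earlier results of these data known. Of 49 Rac and Cdc42 GAPs, the family of Arhgap31, 30 had a promoter peak in some library and 7 in every DMSO library of the GSK-126 experiment. Over all promoters these shares were 38.0% and 8.63%, against which the counts of each list can be read. Apart from Arhgap31 the strongest there in the full lists were Arhgap6, with 20.2% ± 0.583 with DMSO and 2.56% ± 4.44 with GSK-126, Stard13, with 16.2% ± 0.551 and 4.24% ± 3.83, and Arhgap29, with 14.2% ± 1.91 and 4.03% ± 2.35 (SD, n = 3). In this and the later lists the strongest genes were picked for high DMSO coverage, in full lists that were longer with DMSO. Lower values with GSK-126 are in part built in by that choice and do not describe the whole list. Of 5 members tested with GSK-126 besides Arhgap31, Stard13 was called lower (−12.0 points, limma adjusted p = 0.0424), a call lost when GSK-126 replicate 1 or 3 or DMSO replicate 2 was dropped, and the median difference was 1.60 points, against −0.506 over all tested promoters. For DIV7 minus DIV1, 7 were tested and 0 called, with a median of 2.98 points against 0.283 over all.

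Of 35 Rac and Cdc42 exchange factors, which switch the GTPases on, 15 had a peak in some library and 4 were tested with GSK-126, with 0 called and a median of −0.761 points. The strongest in the full lists, picked by their DMSO coverage, were Dock1, with 18.8% ± 5.01 with DMSO and 0% in every GSK-126 library, Tiam2, with 17.2% ± 5.55 and 5.56% ± 3.11, and Dock5, with 12.2% ± 3.93 and 0%. Among 6 Adams-Oliver syndrome genes, Eogt, which adds O-linked N-acetylglucosamine to Notch, had 0% in every DIV1 library with equal lists and a mean of 8.53% at DIV5, and passed the test of that added contrast (limma adjusted p = 0.0497), in which 0.892% of promoters were called. No promoter was called in it without DIV5 replicate 3 or without replicate 1 of every day, so the Eogt call did not hold there. Eogt had 0% in every GSK-126 library.

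Of 26 filamins and filamin C partners, 13 had a peak in some library and 2 besides Flnc were tested with GSK-126. Pgm5 was called higher with equal lists (limma adjusted p = 0.0392), its mean being 0% with DMSO and 7.95% after treatment, but with all deposited peaks it was lower, at 14.5% ± 0.423 and 8.78% ± 2.12 (SD, n = 3), so its direction turned with the scaling. Hspb1, a small heat shock protein, had 21.3% ± 6.53 and 9.83% ± 7.07 in the full lists, and Bag3, a co-chaperone, 19.0% ± 4.56 and 2.05% ± 1.92. Of 46 actin crosslinking and bundling genes 33 had a peak in some library, and of 45 striated and smooth muscle genes 23 had one. None of the 4 tested in either list was called with GSK-126, with medians of 0.533 and 0.70 points.

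No member of the 9 lists was called for DIV7 minus DIV1 or GSK-J4 by limma. The granule neuron list had no promoter with enough coverage to be tested in any of the 3 experiments. Of the 26 markers of other cell types 4, 1 and 1 were tested in the time course, GSK-J4 and GSK-126 experiments and 0 were called. The most covered was Cldn5, an endothelial tight junction gene, with a peak in 24 libraries.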

How the data were processed

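Trimmomatic 0.38, FastQC, STAR 2.7.2b, MACS2 2.1 and bedtools 2.25.0 are named in the submitters' processing notes for reads aligned to mm10. Broad peaks were called per library at an FDR of 0.1, and the control of the calls is not given in the sources used here. The deposited column 7 is a fold enrichment, a ratio over local background, and the deposited columns 8 and 9 are −log10 p and −log10 q. DESeq2 1.36.0, which the authors ran on read counts, could not be repeated on peak lists. Read depth is unknown, so no interval that needs it is given.

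GENCODE vM21 annotation and the GRCm38 genome gave genes and sequence. Lists were limited within an experiment by −log10 p to 1.11 Mb (time course), 1.07 Mb (GSK-126) or 1.40 Mb (GSK-J4), so coverage is relative. Promoters covered in at least 3 libraries were tested with limma 3.58.1 in R 4.3.3 (lmFit, robust eBayes, two-sided, Benjamini-Hochberg, threshold 0.05), 1 fit per experiment. It was checked on simulated data. Single values used exact permutation in Python 3.11.15 with numpy 2.4.6 and pandas 2.3.3; figures used matplotlib 3.10.9.

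The members and lists were chosen with earlier results of these data known. Named list genes were the 3 with the highest mean DMSO coverage in the GSK-126 experiment and any that were called. Neighbours within 200 kb, the 5 most similar promoters and those ranked beside a member were also named, without Gm or Rik models among the similar ones. Alternatives were the full lists, a −log10 q minimum of 2, ranking by fold, 1 common length, 1 kb half-windows, a filter of 1 covered library, the replicate block and leaving out each library. Replicates pooled litters, and p-values measure only the spread between these samples. One gene list and some single genes of other lists are not reported here.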

Additional observations from a re-analysis of the deposited data

How the results depend on the processing

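Coverage rests on called peaks, so it depends on call depth, and read depth is unknown. All values are differences in percentage points. For GSK-126 minus DMSO, Arhgap31 was −11.1 with −log10 q of 2 or more, −44.5 with windows of 1 kb on each side (a smaller denominator) and −15.7 to −14.2 when 1 library was left out; Flnc was 1.13, −45.5 and −18.5 to −15.9, and −0.328 when peaks were ranked by fold enrichment. Promoters called higher and lower with GSK-126 numbered 23 and 41, but 5 and 636 with all deposited peaks, 0 and 4 with the q minimum, 27 and 64 ranked by fold, 24 and 26 with promoters covered in 1 library admitted, and 0 to 6 and 0 to 16 when 1 library was left out. For DIV7 minus DIV1 they numbered 8 and 10, but 1 and 39 with all peaks, 2 and 2 with the q minimum, 1 and 4 ranked by fold, 9 and 6 with 1 kb windows, 15 and 10 with promoters covered in 1 library admitted, 0 and 4 without replicate 1 of every day (chosen after seeing the data), and 0 to 13 and 0 to 27 when 1 library was left out. For the trend they numbered 0 and 1, but 3 and 33 with all peaks and 0 to 2 and 0 to 2 when 1 library was left out, and for GSK-J4 1 and 0 with the q minimum. Leaving out 1 library gave DIV7 minus DIV1 of 3.81 to 11.5 for Arhgap31 and −13.4 (without DIV1 replicate 1, adjusted p = 0.0471) to −3.99 for Flnc, and −13.8 without replicate 1 of every day. Flnc with GSK-126 turned direction at the q minimum, and Pgm5 with GSK-126 turned with all deposited peaks. The time course and GSK-J4 differences of the 2 genes that turned direction had not passed the test. Ranked by fold, DIV5 minus DIV3 of Arhgap31 was −7.16, DIV7 minus DIV5 was 2.31 for Arhgap31 and 0.611 for Flnc, and at Flnc DIV7 minus DIV3 was 2.22 and DIV5 minus DIV1 −3.35. DIV3 minus DIV1 of Flnc was 0.378 with all peaks and −6.24 to 3.15 when 1 library was left out (0.0250 without DIV1 replicate 2, 0.478 without DIV3 replicate 2). DIV5 minus DIV3 of Arhgap31 ran from −1.23 (without DIV3 replicate 1) to 8.06, and was −1.41 without replicate 1 of every day. DIV5 minus DIV1 of Flnc ran from −2.18 (without DIV1 replicate 1) to 7.22, and was −1.63 without replicate 1 of every day. GSK-J4 minus DMSO of Arhgap31 ran from −5.97 to 0.253 (without GSK-J4 replicate 1). Gene body coverage of Arhgap31, DIV7 minus DIV1, was 0.0149 with all peaks; over the whole annotated gene it was 0.2996 for Arhgap31 and −1.41 for Flnc, and for GSK-J4 −0.114 and 0.670. The causes were not tested. Equal replicate numbers were not shown to pair samples, with deviation correlations of −0.0688 to 0.157 in the time course, −0.0585 to 0.0930 for GSK-126 and 0.0272 to 0.0335 for GSK-J4. With the replicate block, DIV7 minus DIV1 was 7.68 for Arhgap31 (limma adjusted p = 0.575) and −8.17 for Flnc (0.371), and promoters called with GSK-126 numbered 0 and 0, so Arhgap31 and Flnc, both among the 41 that chose them, were no longer called. In the time course and GSK-J4 experiment neither gene was called with or without the block. At the q minimum neither gene was covered in enough libraries to be tested.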
